A study of Homo sapiens with 20 samples.

Results

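The 49 genes described here are neighbours on the short arm of chromosome 19, in band p13, from ZNF491 to STX10. They span 1.35 megabases (chr19:11798523-13150375, GRCh38.p14). Of them, 21 carry a ZNF symbol and encode zinc finger proteins, and 28 are other genes, from MAN2B1 to STX10. Each was measured by 1 transcript cluster, a set of array probes for 1 gene, out of 17709 clusters that carried exactly 1 gene symbol. The members were chosen by their SJCRH30 changes, as neighbours whose levels were lower together in resistant than in parental cells. Their SJCRH30 values, and the counts past a threshold made from them, are therefore a description and not a test. The NCI-H520 and Rh41 values played no part in that choice and were tested.

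RNA was measured on 20 arrays in 6 groups. Prexasertib-resistant NCI-H520, a squamous cell lung carcinoma line grown in rising drug concentrations, had 3 arrays, and parental NCI-H520 had 3. The resistant SJCRH30 cells, from an alveolar rhabdomyosarcoma line, were cultured from a xenograft that had regrown in an athymic mouse treated with prexasertib (3 arrays). Parental SJCRH30 cells came from a xenograft of the vehicle arm (3 arrays), so the SJCRH30 groups come from different tumours as well as differing in resistance, with 1 derived line on each side. Resistant Rh41, another alveolar rhabdomyosarcoma line, had 5 arrays of independent cultures selected with the drug, and parental Rh41 had 3. Prexasertib inhibits CHK1, a kinase of the replication checkpoint. The study describes sub-culture of the tumour-derived SJCRH30 lines with prexasertib in the medium. The labels of the 3 resistant SJCRH30 arrays name prexasertib without the word resistant, which the resistant arrays of the other lines carry. They are taken here as the resistant line of the study. No source used here states whether the drug was present when RNA was taken. Arrays of a group are labelled biological replicates, and the study states that RNA came from replicate cultures, mostly in triplicate. For NCI-H520 and SJCRH30 nothing used here says that these cultures were selected separately. There p-values measure the spread between cultures and not between separate selections.

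Arrays of a group correlated at 0.983 to 0.994 over all clusters. The Rh41 arrays form a normalization set of their own with a smaller spread, at a standard deviation of 1.99 against 2.99 in the other lines, so changes in Rh41 can be compared with other lines in direction and not in size. Of the marker genes of rhabdomyosarcoma, MYOG averaged 14.45 in resistant and 15.33 in parental SJCRH30 cells and 10.95 in resistant and 11.01 in parental Rh41 cells (log2 values), while MYF5 and MYH3 lay under 5 in all 4 groups. In NCI-H520 the squamous marker SOX2 averaged 16.33 in resistant and 15.59 in parental cells, and the keratin genes KRT5 and KRT14 as well as DSG3 and PKP1 lay under 5. A log2 value under 5 is called dim below.

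The zinc finger genes in this stretch belong to the C2H2 class, whose fingers bind DNA, and many carry a KRAB domain. KRAB zinc finger proteins recruit the corepressor TRIM28, which brings the histone methyltransferase SETDB1 and HP1 proteins, and they are known for silencing transposable elements. They arose by tandem duplication and lie in clusters along chromosome 19. The genes beside them have unrelated jobs, among them antioxidant defence (PRDX2), protein folding in the endoplasmic reticulum (CALR), removal of RNA from RNA-DNA hybrids (RNASEH2A), lysosomal breakdown (MAN2B1, DNASE2) and transcription (JUNB, KLF1, NFIX, NACC1, LYL1).

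RefSeq promoters of 300 bases, 250 before and 50 after a transcription start, matched 45 of the 49 members. The 5 below belong to the members with the lowest SJCRH30 changes in each class and to ZNF443 and ZNF799, which also rose in Rh41. They are written 5′ to 3′ on the strand of the gene, with the GC box (GGGCGG, or CCGCCC on the opposite strand) in capitals. Of the ZNF799 starts the upstream one is shown, and its other promoter held 0 GC boxes.
PRDX2 promoter (chr19:12801751-12802050, minus strand): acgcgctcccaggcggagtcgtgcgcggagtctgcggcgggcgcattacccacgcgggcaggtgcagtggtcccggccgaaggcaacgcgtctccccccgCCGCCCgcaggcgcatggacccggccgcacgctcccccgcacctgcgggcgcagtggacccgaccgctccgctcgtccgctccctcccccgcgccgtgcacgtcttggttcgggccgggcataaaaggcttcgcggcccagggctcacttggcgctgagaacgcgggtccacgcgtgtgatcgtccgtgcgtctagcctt
NACC1 promoter (chr19:13118014-13118313, plus strand): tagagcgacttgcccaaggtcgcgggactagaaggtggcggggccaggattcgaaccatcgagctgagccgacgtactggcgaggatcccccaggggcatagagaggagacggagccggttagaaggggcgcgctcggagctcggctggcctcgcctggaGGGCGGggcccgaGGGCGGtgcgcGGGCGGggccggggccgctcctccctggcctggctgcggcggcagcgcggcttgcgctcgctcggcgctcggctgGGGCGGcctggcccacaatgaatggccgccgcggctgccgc
ZNF791 promoter (chr19:12610670-12610969, plus strand): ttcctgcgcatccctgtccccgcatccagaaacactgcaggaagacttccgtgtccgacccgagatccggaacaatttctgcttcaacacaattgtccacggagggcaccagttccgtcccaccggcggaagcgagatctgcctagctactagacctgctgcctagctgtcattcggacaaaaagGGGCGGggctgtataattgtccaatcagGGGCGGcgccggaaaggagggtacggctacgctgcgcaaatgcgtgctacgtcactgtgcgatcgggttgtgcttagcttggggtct
ZNF443 promoter (chr19:12440972-12441271, minus strand): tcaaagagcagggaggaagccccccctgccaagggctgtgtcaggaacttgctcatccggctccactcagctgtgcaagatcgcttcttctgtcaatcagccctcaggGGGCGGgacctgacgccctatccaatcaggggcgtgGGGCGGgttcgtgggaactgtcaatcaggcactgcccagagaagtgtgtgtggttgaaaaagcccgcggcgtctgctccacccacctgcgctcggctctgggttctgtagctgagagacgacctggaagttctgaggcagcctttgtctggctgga
ZNF799 promoter (chr19:12401222-12401521, minus strand): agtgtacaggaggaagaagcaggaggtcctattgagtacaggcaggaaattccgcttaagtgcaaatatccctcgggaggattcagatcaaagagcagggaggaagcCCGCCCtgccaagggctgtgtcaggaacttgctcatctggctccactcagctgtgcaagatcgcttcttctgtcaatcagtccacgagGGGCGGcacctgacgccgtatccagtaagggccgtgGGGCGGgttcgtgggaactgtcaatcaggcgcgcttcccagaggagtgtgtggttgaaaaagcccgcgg
A GC box stood in 47 of 59 member promoters, or 79.7%, against 15786 of all 35116 promoters of this length. The letters CCAAT or their reverse complement stood in 20 of 22 promoters of the zinc finger members (90.9%), in 16 of 37 of the other members (43.2%) and in 34.6% of all promoters. TATAAA was found in 0 of the 22 zinc finger promoters, in 4 of 37 of the others and in 11.5% of all. Among the 190 pairs of zinc finger members the median identity of the aligned promoters was 62.0%. The highest value was that of ZNF439 and ZNF69 at 86.3%, and ZNF443 and ZNF799 stood at 65.7%. Identity was counted over all 300 bases, so related windows that are offset against each other score lower. The start of the ZNF443 window recurs inside the ZNF799 window, so 65.7% understates the likeness of this pair. Array probes for related genes may detect each other's transcripts, so the values of single zinc finger genes, ZNF443 and ZNF799 among them, are uncertain. Promoter windows lie mostly before the transcript and cannot show this, and sharing of probes was not checked. These matches are descriptions of letters in a window.

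In SJCRH30, the contrast that chose the members, 46 of 49 changes lay below 0 and the median log2 change, resistant minus parental, was -0.89, beside 0.01 over all clusters. The threshold used throughout asks limma for an adjusted p below 0.05 and over 1.5-fold. Past it, 31 members were lower and 0 higher in resistant cells, beside 9.28% of all clusters lower and 9.42% higher, or 18.7% either way. At an unadjusted p under 0.05 limma gave 36 lower (73.5%) and 0 higher, beside 15.2% of all clusters lower and 15.4% higher. The rule used this contrast, so both sets of counts describe the choice and test nothing. The shares of all clusters beside them give scale only. All 3 resistant arrays lay below all 3 parental arrays in 37 members (16.8% of all clusters), above them in 2 members (17.4% of all clusters), and overlapped in 10. On single resistant arrays the median member lay at 0.72, 0.90 and 0.81 below the parental mean, so no single array carried the shift. The median was -0.93 in the 21 zinc finger members, 17 of which were lower past the threshold, and -0.65 in the 28 others, with 14 past it. Without the dim members the 22 remaining other genes had a median of -0.95.

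**Figure D1:**
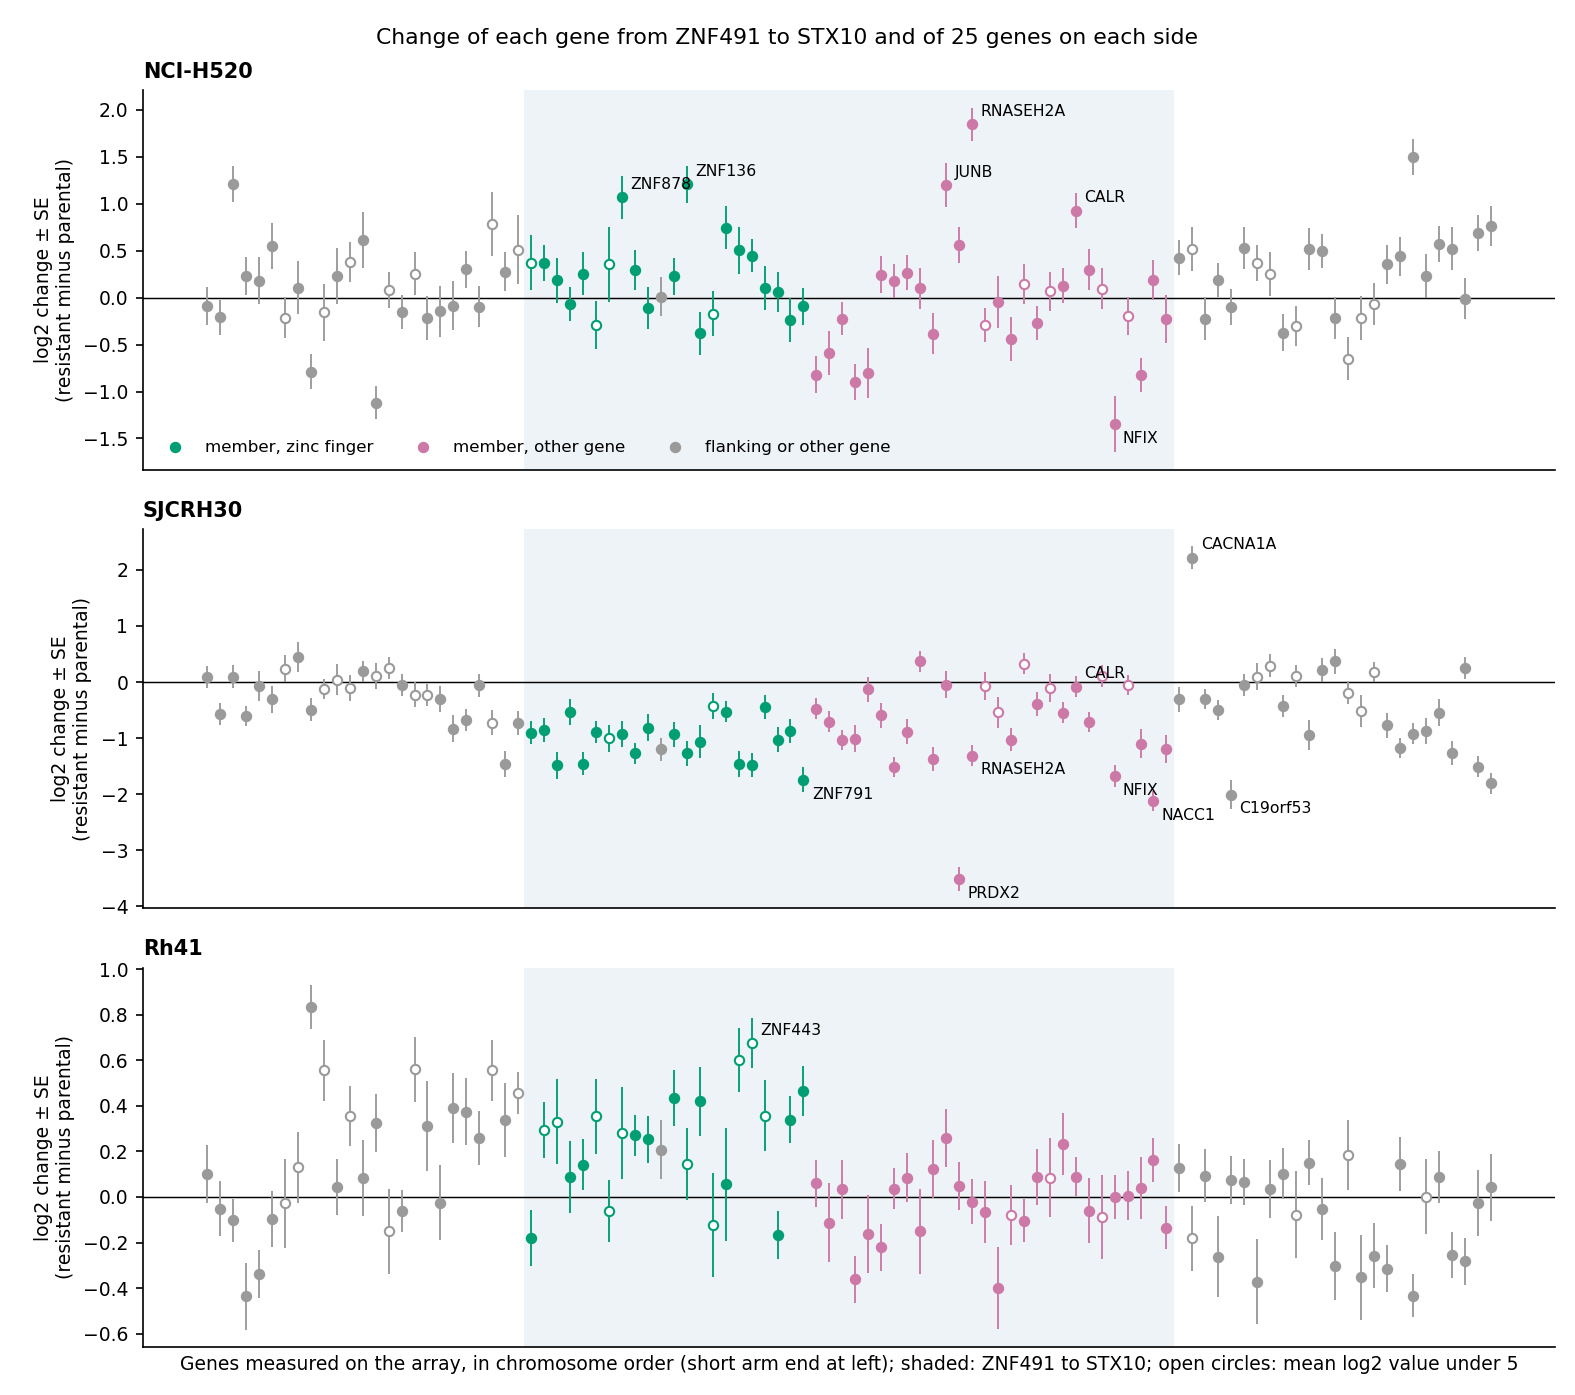
Log2 change (resistant minus parental, ± SE) of each measured gene in chromosome order, with the members in the shaded stretch and 25 genes on each side, with 1 panel per line, each on its own vertical scale. Nearly the whole shaded stretch lies below 0 in SJCRH30 cells, with a median of -0.89, while NCI-H520 cells have a median of 0.10 and Rh41 cells one of 0.06.

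PRDX2, a peroxiredoxin that reduces hydrogen peroxide, had the lowest change of the stretch. Its log2 values were 6.22, 6.29 and 6.38 in resistant SJCRH30 arrays, against 10.22, 9.75 and 9.45 in parental arrays, a log2 change of -3.51 ± 0.22 (SE). The resistant arrays lay close together and far below every parental array, and the parental level was 11.4-fold higher on the deposited scale. NACC1, a BTB-domain transcriptional regulator, had 9.06, 9.16 and 9.20 in resistant arrays, against 11.19, 11.38 and 11.20 in parental arrays, a change of -2.12 ± 0.18. NFIX, a transcription factor of the nuclear factor I family that acts in muscle development, had 8.19, 7.97 and 7.97 in resistant arrays, against 9.98, 9.59 and 9.60 in parental arrays (-1.68 ± 0.19). TRIR, an RNase that interacts with telomerase RNA, had 11.04, 11.04 and 10.99 in resistant arrays, against 12.59, 12.57 and 12.45 in parental arrays (-1.51 ± 0.18). In each of these 4 genes the groups were separated by far more than the range within either.

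Among the zinc finger members ZNF791 had the lowest change, with 7.15, 7.42 and 7.03 in resistant arrays, against 8.85, 8.61 and 9.37 in parental arrays (-1.74 ± 0.22). ZNF439 had 7.75, 7.75 and 7.78 in resistant arrays, against 8.71, 9.27 and 9.75 in parental arrays (-1.49 ± 0.24), a case in which the parental arrays varied and the resistant arrays did not. ZNF443 had 7.05, 7.61 and 7.74 in resistant arrays, against 8.85, 8.87 and 9.13 in parental arrays (-1.48 ± 0.22). ZNF799 had 7.41, 7.55 and 8.15 in resistant arrays, against 9.03, 9.04 and 9.44 in parental arrays (-1.47 ± 0.23). The other 17 zinc finger members ranged in change from -1.46 (ZNF700) to -0.43 (ZNF563), and ZNF563, which is dim, was the only one whose arrays overlapped.

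At the other end of the range stood BEST2, a bestrophin chloride channel, with 5.64, 6.01 and 6.06 in resistant arrays, against 5.42, 5.57 and 5.62 in parental arrays (0.37 ± 0.19). KLF1, the erythroid Krüppel-like factor, was dim, with 5.0, 4.78 and 4.77 in resistant arrays, against 4.64, 4.47 and 4.45 in parental arrays (0.33 ± 0.18). These are the members whose resistant arrays all lay above the parental ones. DAND5, a secreted antagonist of Nodal signalling, was dim in both groups (0.11 ± 0.20), and the AP-1 subunit JUNB had 5.51, 4.86 and 5.81 in resistant arrays, against 5.67, 5.44 and 5.22 in parental arrays (-0.05 ± 0.25), with overlap.

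**Figure D2:**
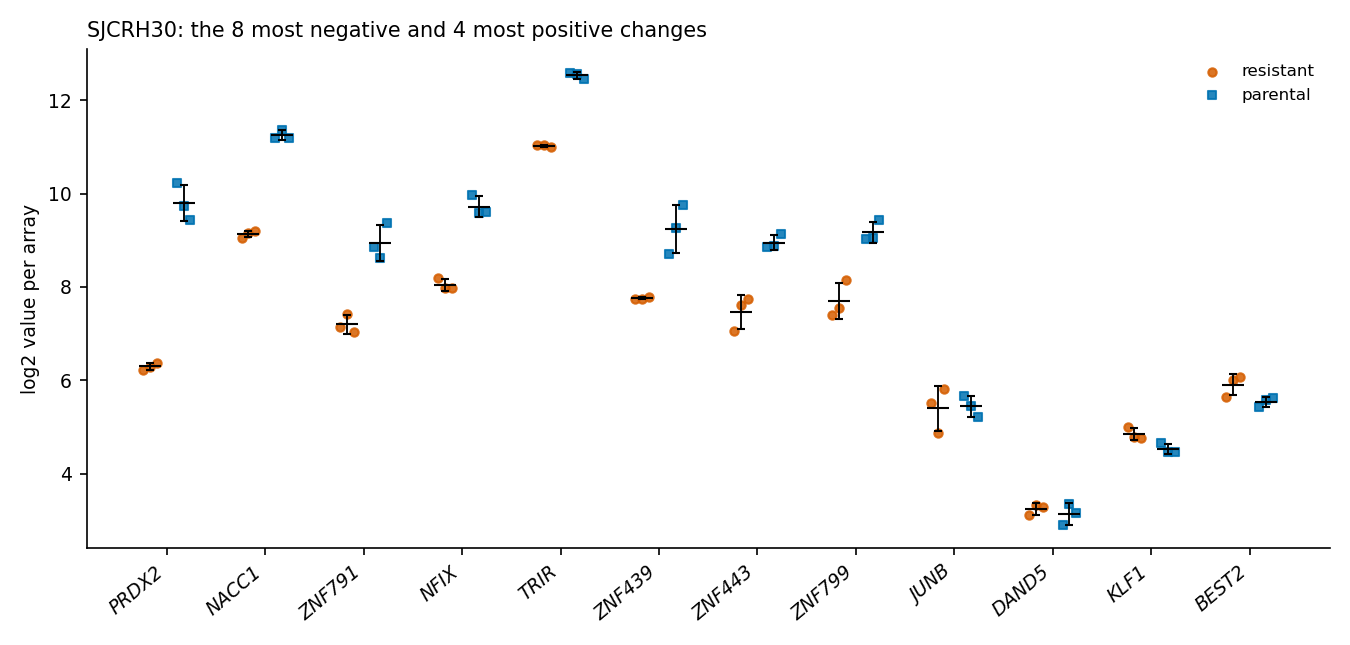
Log2 value on each SJCRH30 array for the 8 members with the most negative and the 4 with the most positive change, resistant (circles) left of parental (squares), with mean and SD (n = 3 each). PRDX2 shows the widest gap, at 6.30 in resistant and 9.81 in parental cells on average, and JUNB and DAND5 overlap.

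The highest signal of the stretch did not follow its neighbours. CALR, the chaperone calreticulin, had 16.68, 16.73 and 16.90 in resistant arrays, against 16.68, 16.90 and 16.97 in parental arrays, a change of -0.08 ± 0.19. The next brightest member, FARSA, the alpha subunit of cytosolic phenylalanine-tRNA synthetase, had a change of -0.55 ± 0.19 and no overlap. Dim and bright members differed in general. The 8 dim members had a median change of -0.08, the 12 at log2 values of 5 to 7 one of -0.76, the 20 at 7 to 9 one of -1.11 and the 9 at 9 or more one of -1.01. All 20 members at 7 to 9 had every resistant array below every parental array. The shift was not the same for every gene. In the 41 members that were not dim the changes had a standard deviation of 0.64, against a median SE of 0.22, the quartiles were -1.31 and -0.60, and 19 of them lay more than 2 SE from the members' median.

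**Figure D3:**
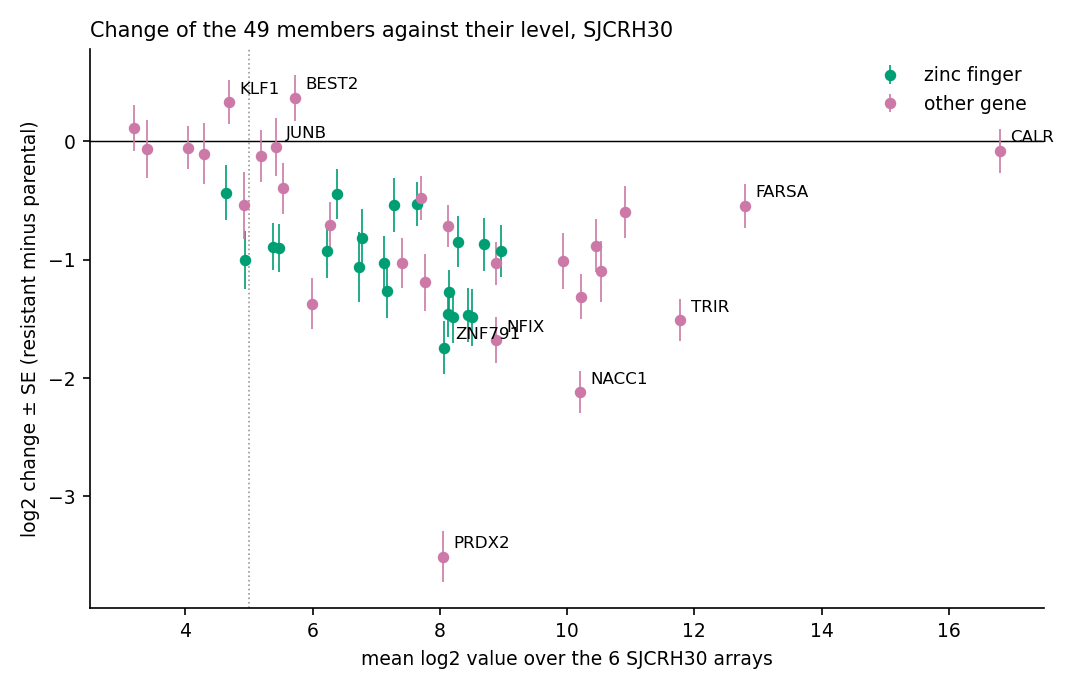
Log2 change (± SE) in SJCRH30 of the 49 members against their mean log2 value over the 6 arrays, zinc finger genes and other genes in separate colours, with a dotted line at 5. The 8 members left of the line have a median of -0.08, with ZNF433 among them at -1.0, PRDX2 lies at -3.51 and CALR, the brightest, at -0.08.

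The other named members of the stretch had intermediate changes in SJCRH30. RNASEH2A, the catalytic subunit of RNase H2, stood at -1.31 ± 0.19, STX10, a syntaxin of the trans-Golgi network, at -1.19 ± 0.24, the lysosomal nuclease DNASE2 at -1.03 ± 0.21 and DHPS, which makes hypusine on the translation factor EIF5A, at -1.01 ± 0.24. GET3, the ATPase that delivers tail-anchored proteins to the endoplasmic reticulum, stood at -0.88 ± 0.22, the lysosomal alpha-mannosidase MAN2B1 at -0.48 ± 0.19 and glutaryl-CoA dehydrogenase, GCDH, at -0.40 ± 0.21. Arrays overlapped in GCDH alone of these 7. LYL1, a bHLH factor of blood cells, was dim at -0.06 ± 0.18. The readthrough transcript ZNF625-ZNF20, measured inside the stretch but not a member, stood at -1.20 ± 0.20 and shares sequence with ZNF625 and ZNF20, so these 3 are not independent.

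The ends of the stretch were not sharp in SJCRH30. On the ZNF491 side the last 3 members were ZNF491 at -0.90, ZNF440 at -0.85 and ZNF439 at -1.49, and the nearest 3 measured genes outside were ZNF441 at -0.73, ZNF823 at -1.46 and ZNF833P at -0.72. These 3 are also zinc finger genes or a pseudogene of one, and their resistant arrays lay below the parental arrays, while the next gene, ZNF627, stood at -0.06 with overlap. On the STX10 side the last 3 members were TRMT1, a tRNA methyltransferase, at -1.10, NACC1 at -2.12 and STX10 at -1.19. Outside, the immediate early gene IER2 stood at -0.30, and YJU2B at -0.30. CACNA1A, a calcium channel subunit between them, went the other way, with 6.78, 6.90 and 7.33 in resistant arrays, against 4.79, 4.72 and 4.84 in parental arrays (2.22 ± 0.20). Farther on, low changes returned, at -2.01 for C19orf53, -1.18 for the protein kinase A subunit PRKACA, -1.51 for the chaperone DNAJB1 and -1.80 for the complex I subunit NDUFB7. Of the 25 genes on the ZNF491 side 6 (24%) were lower past the threshold (median -0.12). Of the 25 on the STX10 side 9 (36%) were lower and 1 higher (median -0.43). Over all clusters 9.28% were lower and 9.42% higher. ZNF627, C19orf53, PRKACA, DNAJB1 and NDUFB7 were picked out after their values were seen.

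Set in the whole chromosome, the stretch lay lowest in SJCRH30, the contrast that chose the members, so this rank describes the choice. In blocks of 20 consecutive genes that were not dim, the blocks made mostly of members had medians of -0.98 and -1.02, and the other 39 blocks ran from -0.56 to 0.14. The next blocks on the STX10 side had medians of -0.52 (IER2 to CLEC17A) and -0.56 (OR7C1 to SLC35E1), and blocks far from the stretch came near them, such as IRGQ to ZNF226 at -0.54. Elsewhere on chromosome 19, 43 of 210 other zinc finger genes (20.5%) were lower past the threshold and 1 was higher, with a median of -0.26. Over all clusters 9.28% were lower and 9.42% higher. Among the zinc finger members, which the rule chose, 17 of 21 were lower, with a median of -0.93. DNA copy number was not measured on these arrays. The study reports exome sequencing of the SJCRH30 model that gave no evidence of mutations behind the resistance. It also reports that long culture without the drug restored part of the sensitivity. Its main text gives no copy number for this stretch.

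**Figure D4:**
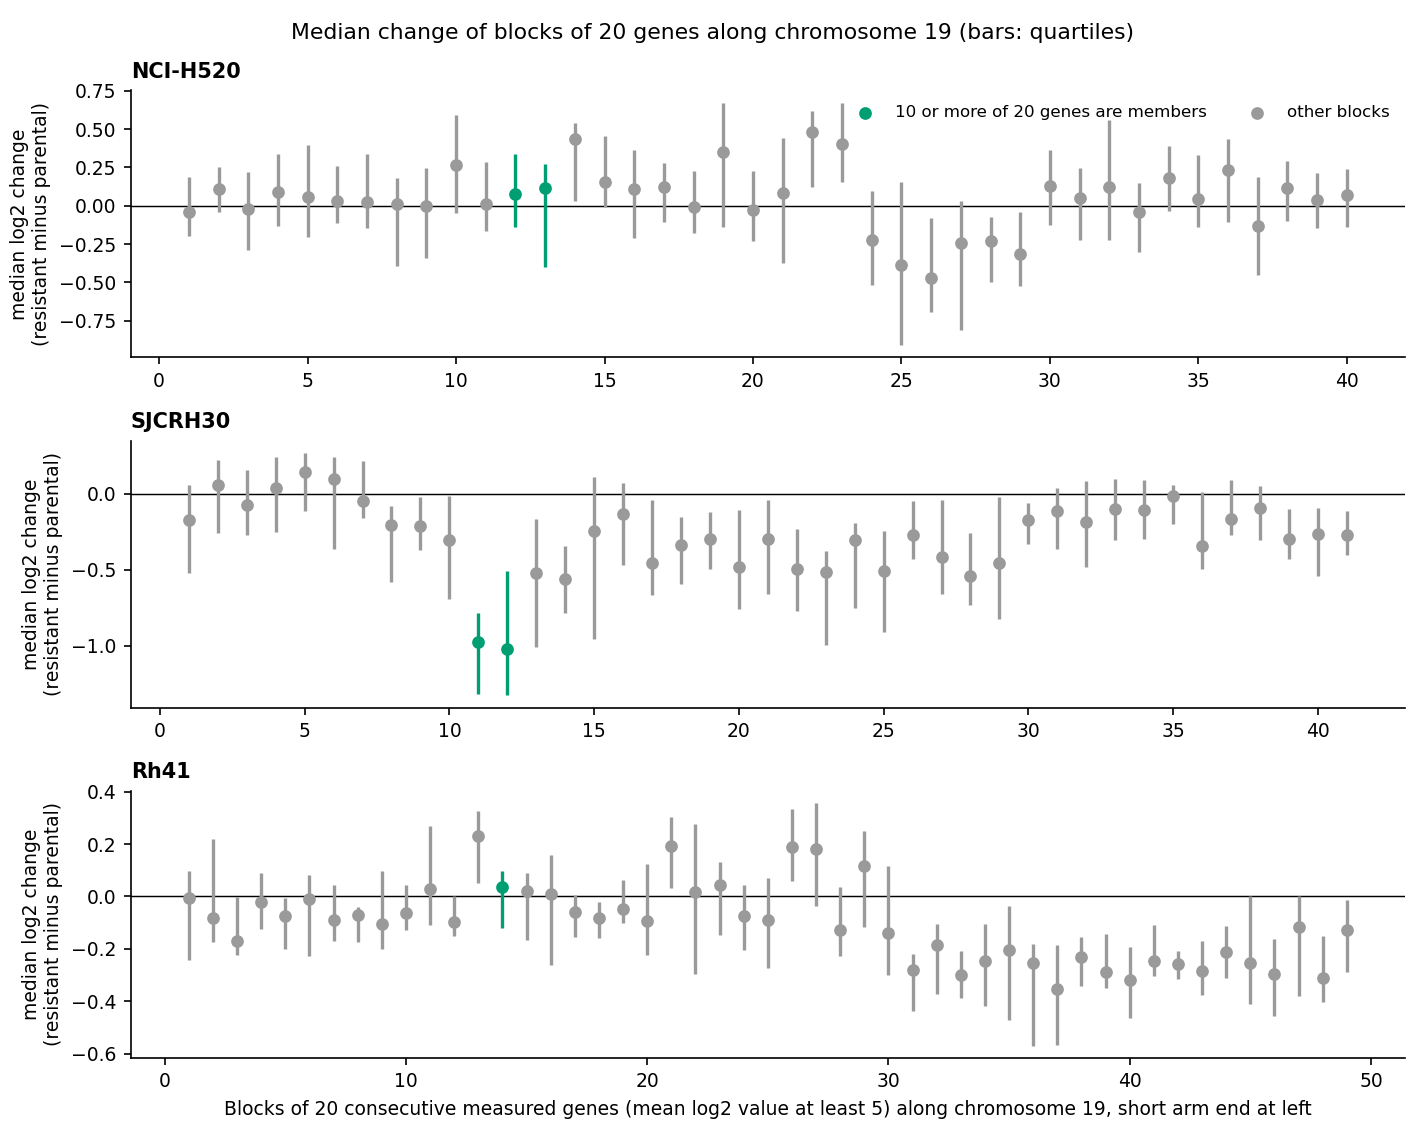
Median log2 change (resistant minus parental) of blocks of 20 consecutive measured genes along chromosome 19, with bars for the quartiles and 1 panel per line on its own vertical scale. The member blocks of SJCRH30, the contrast that chose the members, lie at -0.98 and -1.02, below all 39 other blocks of that line. In NCI-H520 the member blocks lie at 0.08 and 0.11.

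In NCI-H520 the same genes showed no common direction. Of the 49 members 6 rose and 4 fell, so that 20.4% were called, against 20% of all clusters (10.1% higher and 9.9% lower), and the median change was 0.10, beside 0.01 over all. All resistant arrays lay above all parental arrays in 9 members (17.7% of all clusters), below them in 8 (16.7%), and overlapped in 32. The member blocks had medians of 0.08 and 0.11, within the range of -0.47 to 0.48 of the other 38 blocks of the chromosome.

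RNASEH2A had the largest rise of the members in NCI-H520. It had 10.80, 10.67 and 10.58 in resistant arrays, against 8.87, 8.86 and 8.77 in parental arrays, a 3.60-fold difference (log2 change 1.85 ± 0.18, limma adjusted p = 2.5e-05). RNase H2 also needs the subunits RNASEH2B and RNASEH2C, and in the same cells RNASEH2B fell (-0.80 ± 0.20, limma adjusted p = 0.0134) while RNASEH2C had a change of 0.00. JUNB had 5.96, 6.25 and 6.85 in resistant arrays, against 5.12, 5.09 and 5.24 in parental arrays (1.20 ± 0.23, limma adjusted p = 0.0033). Its AP-1 relatives JUN (-1.68 ± 0.23, limma adjusted p = 0.000305) and FOS (-1.06 ± 0.33, limma adjusted p = 0.0419) fell, FOS with overlapping arrays. CALR had 16.24, 16.08 and 16.44 in resistant arrays, against 15.48, 15.22 and 15.28 in parental arrays (0.93 ± 0.19, limma adjusted p = 0.00433). Resistant and parental arrays did not overlap in RNASEH2A, JUNB or CALR.

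Of the zinc finger members 3 rose in NCI-H520 and 0 fell in the limma fit, with 4 higher and 0 lower at an unadjusted p under 0.05. These are 14.3% risen, beside 10.1% of all clusters, and 19% higher at the unadjusted p, beside 15.5%. ZNF136 had 6.94, 7.10 and 6.91 in resistant arrays, against 5.48, 5.97 and 5.87 in parental arrays (1.21 ± 0.20, limma adjusted p = 0.00102). ZNF878 had 6.02, 5.31 and 5.42 in resistant arrays, against 4.44, 4.37 and 4.74 in parental arrays (1.07 ± 0.23, limma adjusted p = 0.00549). ZNF442 had 6.66, 6.02 and 6.08 in resistant arrays, against 5.21, 5.60 and 5.72 in parental arrays (0.74 ± 0.23, limma adjusted p = 0.0403), the smallest gap of the 3. Leaving out any parental array ended the call of ZNF442 (changes of 0.60, 0.79 and 0.85 without parental replicates 1, 2 and 3), as did leaving out resistant replicate 1 (0.54) or 3 (0.83).

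The 4 falls in NCI-H520 were in genes outside the zinc finger class. NFIX had 6.63, 7.81 and 7.78 in resistant arrays, against 8.66, 9.05 and 8.55 in parental arrays (-1.35 ± 0.30, limma adjusted p = 0.00757), with resistant replicate 1 below the other two. Its paralog NFIA rose (2.05 ± 0.19, limma adjusted p = 2.03e-05). DHPS had 10.23, 9.92 and 9.92 in resistant arrays, against 11.00, 10.98 and 10.77 in parental arrays (-0.90 ± 0.19, limma adjusted p = 0.00521), and its substrate EIF5A rose (0.59 ± 0.18, limma adjusted p = 0.0385). TRMT1 had 9.77, 9.88 and 9.60 in resistant arrays, against 10.59, 10.60 and 10.54 in parental arrays (-0.83 ± 0.18, limma adjusted p = 0.00637). MAN2B1 had 7.52, 7.40 and 7.88 in resistant arrays, against 8.47, 8.36 and 8.43 in parental arrays (-0.82 ± 0.19, limma adjusted p = 0.0103). PRDX2, which had the lowest change in SJCRH30, had 13.68, 13.49 and 13.24 in resistant NCI-H520 arrays, against a mean of 12.91 in parental arrays, with no overlap, but missed the threshold (0.56 ± 0.19, limma adjusted p = 0.0647). Of the other panel members, NACC1 (0.19), GET3 (0.27), FARSA (0.13), GCDH (-0.27), DNASE2 (-0.44), STX10 (-0.22), KLF1 (0.15) and LYL1 (-0.20) did not pass the threshold in NCI-H520.

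**Figure D5:**
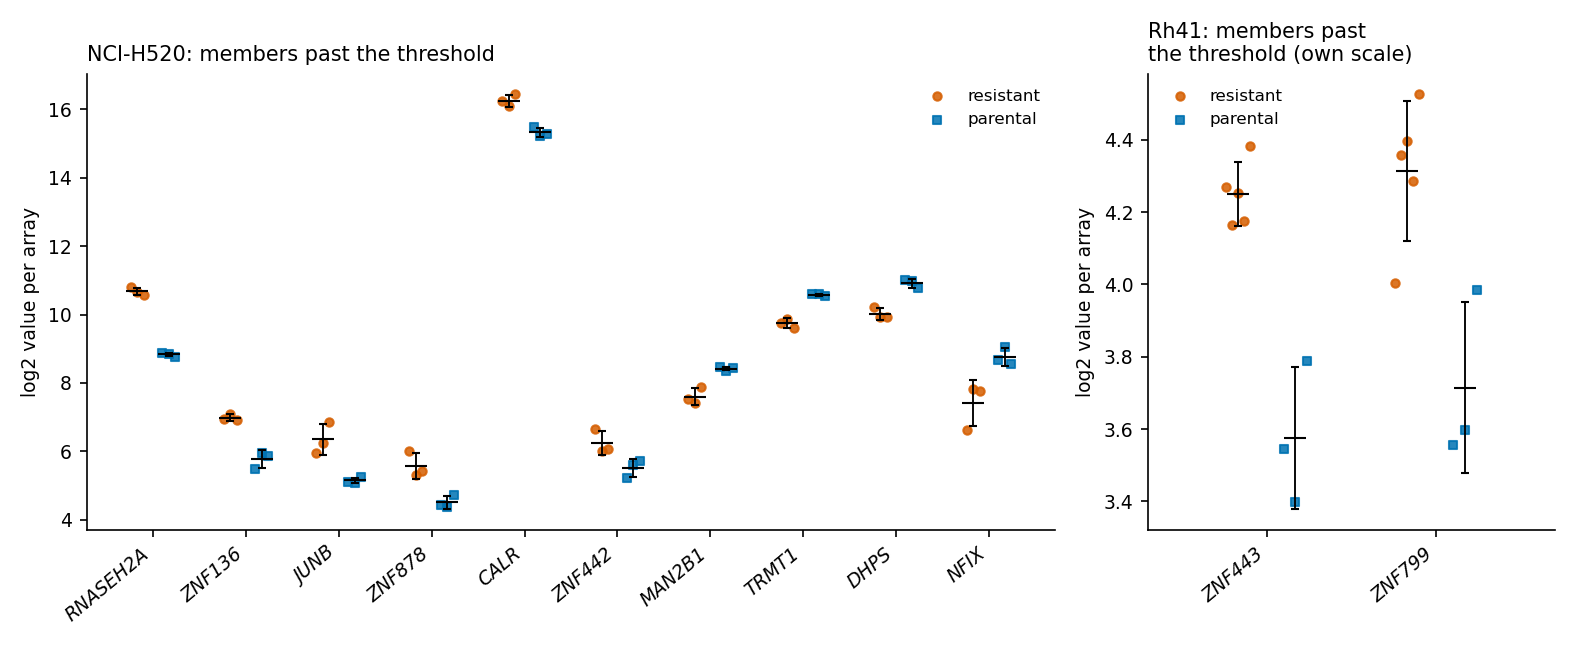
Log2 value on each array of the members past the threshold in NCI-H520 (left panel, n = 3 each) and Rh41 (right panel, 5 resistant and 3 parental, on its own scale), resistant (circles) left of parental (squares), with mean and SD. In NCI-H520 RNASEH2A shows the widest gap among the rises and NFIX among the falls, and in Rh41 ZNF443 and ZNF799 lie at low values, under 5.

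In Rh41 2 members rose and 0 fell in the limma fit, or 4.08% of the members, against 8.78% of all clusters (5.69% higher and 3.08% lower), and 10 (20.4%) were higher and 2 lower at an unadjusted p under 0.05, against 16.8% of all clusters higher and 16.4% lower. The median change was 0.06, beside -0.03 over all. All resistant arrays lay above all parental arrays in 6 members (13.6% of all clusters), below them in 1 (12.6%), and overlapped in 42. ZNF443 had 4.27, 4.17, 4.25, 4.18 and 4.38 in resistant arrays, against 3.54, 3.40 and 3.79 in parental arrays (0.67 ± 0.11, limma adjusted p = 0.00148). ZNF799 had 4.0, 4.36, 4.40, 4.29 and 4.53 in resistant arrays, against 3.56, 3.60 and 3.99 in parental arrays (0.60 ± 0.14, limma adjusted p = 0.0115). Both are dim, both separate the groups without overlap, and they may share probes. The call of ZNF799 ended when parental replicate 1 (0.52), parental replicate 2 (0.54), resistant replicate 3 (0.58) or resistant replicate 5 (0.55) was left out, and that of ZNF443 without parental replicate 2 (0.58).

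The zinc finger members of Rh41 had a median change of 0.28, with 17 of 21 above 0, and the other members one of 0.00, with 14 of 28 above 0. Of the 21 zinc finger members 10 are dim in Rh41, and the 11 that are not had a median of 0.25. All 10 members higher at an unadjusted p under 0.05 were zinc finger genes, or 47.6% of the 21, beside 16.8% of all clusters. Of the 210 other zinc finger genes of chromosome 19, 15.7% were higher and 25.2% lower, with a median of -0.07. Of the flanking genes on the ZNF491 side 36% were higher and 8% lower, and on the STX10 side 0% and 16%. By adjusted p alone, with no fold limit, ZNF791 (0.46 ± 0.11, limma adjusted p = 0.0125), ZNF625 (0.43 ± 0.12, limma adjusted p = 0.0287) and ZNF490 (0.34 ± 0.10, limma adjusted p = 0.0365) were also higher, and DHPS (-0.36 ± 0.10, limma adjusted p = 0.0308) lower. The block from PLPPR2 to ZNF564, which holds 9 members, had a median of 0.23, the highest of the Rh41 blocks. Blocks without members came near that value, with 0.19 from ZNF93 to ZNF98, 0.19 from WDR62 to ZNF585A and 0.18 from ZNF585B to RASGRP4. The 25 genes on the ZNF491 side had a median of 0.13. Members outside the zinc finger class had changes of 0.09 ± 0.08 for CALR, 0.05 ± 0.10 for PRDX2, 0.16 ± 0.10 for NACC1, -0.02 ± 0.10 for RNASEH2A and -0.00 ± 0.10 for NFIX, none past the threshold. Among the rest of the panel, JUNB (0.26), FARSA (0.23), GET3 (0.09), GCDH (0.09), MAN2B1 (0.06), LYL1 (0.01), DNASE2 (-0.08), KLF1 (-0.10) and STX10 (-0.13) did not pass it either.

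Set side by side, the 31 members that were lower past the threshold in SJCRH30 had a median change of 0.18 in NCI-H520, where 3 rose (ZNF136, ZNF878 and RNASEH2A) and 3 fell (DHPS, TRMT1 and NFIX), and a median of 0.12 in Rh41, where 2 rose (ZNF443 and ZNF799) and 0 fell. Over all clusters 10.1% rose and 9.9% fell in NCI-H520, and 5.69% rose and 3.08% fell in Rh41, so these counts are near the background. The difference between lines was not tested.

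The machinery that KRAB zinc finger proteins work through had genes called in both directions. Of its 17 measured genes, in NCI-H520 4 rose and 2 fell (median -0.08), among them UHRF1 (2.80 ± 0.19), DNMT1 (1.19 ± 0.18) and HDAC2 (0.90 ± 0.18) upward and ATRX (-0.99 ± 0.24) and TASOR (-0.84 ± 0.20) downward. In SJCRH30 3 rose (UHRF1, 1.15 ± 0.19, SETDB1, 0.68 ± 0.19, and CBX3, 0.63 ± 0.19) and ATF7IP, a cofactor of SETDB1, fell (-1.22 ± 0.18), with a median of 0.02. In Rh41 TRIM28, the corepressor itself, fell (-0.67 ± 0.09, limma adjusted p = 0.000381), the 1 call among the 17 (median -0.08), and 1 was higher and 5 lower at an unadjusted p under 0.05. Of the list 35.3% was called in NCI-H520, beside 20% of all clusters. In SJCRH30 the share was 23.5%, beside 18.7%, and in Rh41 5.88%, beside 8.78%. At the unadjusted p in Rh41 5.88% of the list was higher and 29.4% lower, beside 16.8% and 16.4% of all clusters.

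Of 33 measured partners and paralogs of the members, which are encoded outside the stretch, 5 rose and 4 fell in NCI-H520 (median 0.32), 5 rose and 5 fell in SJCRH30 (median 0.13), and 1 rose and 0 fell in Rh41 (median 0.05), where the limma fit gave 6 higher and 4 lower at an unadjusted p under 0.05. The shares called were 27.3% in NCI-H520, beside 20% of all clusters, 30.3% in SJCRH30, beside 18.7%, and 3.03% in Rh41, beside 8.78%. Only 2 of the 33 genes were dim in NCI-H520 and 4 in SJCRH30. Among clusters that were not dim 28.8% were called in NCI-H520 and 26.9% in SJCRH30, near the shares of the list. At the unadjusted p in Rh41 18.2% of the list was higher and 12.1% lower, beside 16.8% and 16.4% of all clusters. In NCI-H520 PDIA3 (0.94 ± 0.18), a folding partner of CALR, rose beside NFIA, and CAMLG (-1.16 ± 0.20), which receives proteins from GET3, fell. In SJCRH30 the syntaxin STX6 (1.81 ± 0.20), PDIA3 (1.19 ± 0.20) and the peroxiredoxin PRDX4 (0.95 ± 0.21) rose, while CAMLG (-1.14 ± 0.21), the AP-1 subunit JUND (-0.87 ± 0.18) and the Krüppel-like factor KLF2 (-0.75 ± 0.21) fell, JUND and KLF2 being on chromosome 19 themselves. KLF2 was the 1 rise in Rh41 (0.67 ± 0.17). Subunit partners of FARSA and RNASEH2A had no single direction in SJCRH30, with FARSB at 0.62 ± 0.19, past the threshold, RNASEH2C at -0.70 ± 0.20, past it, and RNASEH2B at 0.10.

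Markers of other cell types that a culture could hold were looked at in the same way, beside the shift in SJCRH30. These are human genes, and both SJCRH30 lines were cultured from tumours grown in mice, so carry-over of mouse cells was not tested. The mean log2 value of the 4 leukocyte genes measured ran from 5.19 to 5.53 over resistant and from 5.13 to 5.38 over parental arrays. For the 5 fibroblast genes it was 6.23 to 6.49 in resistant and 6.27 to 6.56 in parental arrays, for the 4 endothelial genes 4.11 to 4.27 in resistant and 4.11 to 4.17 in parental arrays, and for the 3 erythroid genes 4.18 to 4.34 in resistant and 4.18 to 4.75 in parental arrays. All 4 ranges overlapped, and none of these genes passed the threshold in SJCRH30. Of the 4 leukocyte genes 2 averaged 5 or more in resistant and in parental cells. The leukocyte marker PTPRC was dim, at 4.52 in resistant and 4.36 in parental cells. The same ranges overlapped in NCI-H520. In Rh41 the leukocyte mean was 4.69 to 4.90 in resistant and 4.93 to 5.07 in parental arrays and the fibroblast mean 5.43 to 5.68 in resistant and 5.73 to 6.10 in parental arrays, where PDGFRA fell (-1.55 ± 0.16). Their part in the Rh41 results was not tested. Of the rhabdomyosarcoma markers, MYOG fell in SJCRH30 (-0.87 ± 0.18) and CHRNA1 rose (0.68 ± 0.20), and in Rh41 DES and MYH3 rose (0.86 ± 0.09 and 0.72 ± 0.18) and MYOD1 fell (-0.62 ± 0.11). Of the squamous markers, SOX2 rose in NCI-H520 (0.74 ± 0.19). KRT14, which is dim over the SJCRH30 arrays, fell in that line (-1.29 ± 0.23), and PKP1 fell in Rh41 (-0.97 ± 0.11). In bulk RNA, fewer cells of a type and less RNA per cell cannot be told apart.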

How the data were processed

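Total RNA was hybridized to Affymetrix Clariom S arrays. The authors deposited log2 values from RMA (background correction, quantile normalization and probe summary; the version is not stated), and the main results use them as they stand. Rh41 arrays had been normalized apart from the other 12 arrays. Gene names came from the platform annotation, and order and positions from RefSeq (GRCh38.p14).

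A separate limma model (3.58.1, under R 4.3.3) was fitted to each line for the difference of resistant from parental arrays, by two-sided moderated tests whose p-values were adjusted (Benjamini-Hochberg) across 17709 clusters. Risen or fallen means an adjusted p under 0.05 and more than 1.5-fold, and errors are moderated SE. Dim clusters were kept. The fit was tested on simulated data. Promoters were aligned with Biopython 1.88, and figures drawn with matplotlib 3.10.9.

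The members and lists (25 flanking genes per side, other chromosome 19 zinc fingers, KRAB machinery, partners and paralogs, cell type markers) were chosen with earlier results of these data known. Genes were named by rule: in SJCRH30 the 8 lowest and 4 highest changes, elsewhere all members called, the 3 genes inside and outside each end, a panel of 15 members, and up to 3 called genes per list, line and direction. Alternatives covered normalization, filters, fit, threshold and leaving out each array.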

Additional observations from a re-analysis of the deposited data

Results flagged for a closer look

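In the 5 resistant Rh41 arrays, a single array stood apart from the other 4 by Dixon's test in 2 of 49 members, and chance gives such a gap in about 1 group of 20. ZNF844 had 6.74 on resistant replicate 2, next to 6.59 on the nearest array. JUNB had 5.88 on resistant replicate 1, next to 5.66 on the nearest array.

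For 5 members every resistant array moved one way in one line and the other way in another, with changes past the threshold in both. The difference between the lines was not tested, and the SJCRH30 values are those by which the members were chosen. RNASEH2A changed by 1.85 in NCI-H520 and -1.31 in SJCRH30 on the log2 scale. ZNF136 changed by 1.21 in NCI-H520 and -1.27 in SJCRH30, and ZNF878 by 1.07 in NCI-H520 and -0.93 in SJCRH30. ZNF443 changed by 0.67 in Rh41 and -1.48 in SJCRH30, and ZNF799 by 0.60 in Rh41 and -1.47 in SJCRH30, with Rh41 on its narrower scale.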

How the results depend on the processing

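No change past the threshold turned direction among the members rerun under the alternatives (10 in NCI-H520, 2 in Rh41 and the named ones of SJCRH30), while genes of the flanks and lists were not rerun one by one. JUNB and DAND5 in SJCRH30, near 0 throughout, lay on either side of it with arrays left out. In NCI-H520 the count of 10 called members was 5 at more than 2-fold and 9 to 12 otherwise, 9 to 11 with 1 array left out, and the median of 0.10 ran from 0.061 to 0.16, the highest without parental replicate 3. ZNF442 lost its call under 9 of 16 alternatives, and CALR, DHPS, TRMT1 and MAN2B1 at more than 2-fold. In SJCRH30 the count of 31 was 21 to 32, and 27 to 29 with 1 array left out. Its median of -0.89 was -0.75 after quantile normalization of all 20 arrays together and -0.95 to -0.79 with 1 array left out.

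In Rh41 the count of 2 was 1 in the fit of all 6 groups, 1 with array medians subtracted, 1 with the replicate block, 6 by adjusted p alone, 0 at more than 2-fold, 0 of 36 members when dim clusters were dropped, and 0 to 3 with 1 array left out (0 without parental replicate 2, 1 without parental replicate 1, resistant replicate 3 or resistant replicate 5). ZNF799 lost its call under 9 of 17 alternatives and ZNF443 under 3. The median of 0.06 ran from 0.044 to 0.088. Of all clusters, 1554 were called in Rh41, 3629 by adjusted p alone, 2946 after joint quantile normalization and 462 at more than 2-fold, where NCI-H520 had 1911 in place of 3545 and SJCRH30 1407 in place of 3313.

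Deviations from the group mean correlated at -0.18 to 0.28 between arrays of the same replicate number, so the numbers were not read as pairs, although in NCI-H520 every array correlated best with its own number. With the replicate block 10 members were called in NCI-H520 and 30 in SJCRH30, and 1 in Rh41, where 3 of 5 resistant arrays share a number with a parental one. Dim members can show little change on arrays.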
